A study of Mus musculus with 57 samples.

Results

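The genes described here encode the protein parts of the cytosolic ribosome. Members were the rows of the deposited table whose mouse symbol is Rpl or Rps followed by a number, with an optional a, x, l or y, or is Rplp0, Rplp1, Rplp2 or Rpsa, and whose mean over all 57 livers was at least 1 CPM (a count scaled to the library total). Of 54307 rows, 83 had such a symbol and 78 passed the minimum, 46 of the large subunit and 32 of the small one. The 5 left out were the paralogs Rpl10l, Rpl32l, Rpl39l, Rpl3l and Rpl6l, with means of 0 to 0.821 CPM. Bulk RNA was sequenced from livers of wild-type male C57BL/6JJcl mice, 6 weeks old, acclimatised for 1 week and fasted for 12 h before dosing, and killed 24 h after it. By gavage, 13 mice received the 0.5% methylcellulose vehicle, 7 MDA (4,4'-methylene dianiline), 6 the analgesic APAP (acetaminophen), 5 TAA (thioacetamide) and 4 ANIT (alpha-naphthyl isothiocyanate). CCl4 (7) and galactosamine (GAL, 4) were injected intraperitoneally and set against intraperitoneal saline (2), and the lectin concanavalin A (ConA, 7) was injected intravenously and set against intravenous saline (2). Corn oil was also used as a vehicle, the labels do not say for which compound, and none of the 17 vehicle livers received it, so oil and compound cannot be told apart where it was used. The labels give each liver a number within its group, and p-values measure the spread between these livers.

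A ribosome is built from a large and a small subunit, each an RNA core covered by many proteins, and cells make the proteins in matched amounts. Most ribosomal protein mRNAs begin with a run of pyrimidines, the 5 prime terminal oligopyrimidine (TOP) motif, through which mTOR signalling and LARP1 set their translation and stability. In the liver, ribosome production is known to rise when hepatocytes leave rest, as in regeneration after loss of tissue. In whole liver RNA, a lower level in each cell and fewer cells of one type cannot be told apart.

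The start sequences of 57 of the 78 genes were matched by symbol in a RefSeq table of the earlier build GRCm38.p6. In 21 of the 57 (36.8%), a run of at least 8 letters C or T that begins with C lay within 10 bases before to 12 bases after an annotated start on the gene strand, against 7.34% of 27025 genes. The letters CCGGAAG, searched on both strands from 250 bases before to 50 after the start, were in 24 (42.1%, against 9.93% of all genes). GGGCGG was in 35 (61.4%, against 38.2%). A match is a description of these letters only. Windows of 30 bases, from 10 before the start, are shown for 4 genes with a run (in capitals) and for 2 of the genes with the largest rises that had none. Rps6 lies at chr4:86857348-86857377 on the minus strand, Rps27 at chr3:90213629-90213658 on the minus strand, Rplp2 at chr7:141447641-141447670 on the plus strand and Rpl18 at chr7:45718061-45718090 on the plus strand. Rpl5 lies at chr5:107900518-107900547 and Rpl12 at chr2:32961702-32961731, both on the plus strand.
Rps6: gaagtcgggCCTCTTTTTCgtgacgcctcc
Rps27: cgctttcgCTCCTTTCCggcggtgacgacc
Rplp2: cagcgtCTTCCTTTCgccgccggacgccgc
Rpl18: ctcgcaggccgCTCTTTCCCCgcccactcc
Rpl5: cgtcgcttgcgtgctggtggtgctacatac
Rpl12: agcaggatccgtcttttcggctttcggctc

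Library totals ranged from 13826343 to 35075809 estimated counts, and mitochondrially encoded transcripts took 5.11% to 39.3% of them, with the lowest share in an intraperitoneal saline liver and the highest in a ConA liver. The hepatocyte markers Alb, Ttr, Apoa1, Serpina1c, Fgb and Cyp2e1 were detected in every group. TMM scaling assumes that most genes do not change. Run over all 57 livers together, it gave factors of 1.63 to 1.81 in the GAL livers, 1.15 to 1.50 in the CCl4 livers and 0.477 to 1.01 in the ConA livers. Levels of members in CPM below, where not said otherwise, use these factors, and sums of cell type markers are CPM of the library total. For log2 changes and calls, TMM was run anew within each compound and its controls. Relative to library-total scaling these runs lowered all genes with GAL and CCl4 and raised them with ConA: the median log2 change of all genes tested was 0.08 (TMM) against 0.84 (library total) with GAL, 0.10 against 0.53 with CCl4, and 0.03 against -0.56 with ConA. It was -0.01 against -0.23 with ANIT and 0.07 against 0.22 with APAP. The counts of called members for each compound are therefore given under both scalings. Counts from fits that leave out a liver, and others said to be under TMM, were taken under TMM alone. All 78 genes passed the filter on low values in every comparison. No member was called between intraperitoneal saline and gavage vehicle, or between intravenous saline and gavage vehicle, under either scaling (edgeR, adjusted p under 0.05; 0 members also at an unadjusted p under 0.05), and almost no gene of any kind was (0.0131% to 0.0263% of all genes), so this says nothing particular to the members. Gavage vehicle livers numbered 1 to 4 and those numbered above 4 differed in no member under TMM (edgeR; 6 at an unadjusted p under 0.05), against 0.603% of all genes higher and 1.73% lower in livers 1 to 4. Under library-total scaling Rpl30 and Rpl17 were lower in livers 1 to 4 (backgrounds 0.145% higher and 5.38% lower), with 23 of 78 members and 3617 of 13764 genes at an unadjusted p under 0.05, and median log2 differences of -0.30 over the members and -0.31 over all genes, so the members lay near the background. All ANIT livers are numbered 1 to 4.

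In CCl4 livers, ribosomal protein transcripts took a larger share of the counts than in any other liver of the series. The 78 genes together took 7.96% ± 0.437 (SD, n = 7) of all estimated counts after CCl4, from 7.43% to 8.72%, against 3.60% and 3.70% in the intraperitoneal saline livers. The highest value outside the CCl4 group was 6.80%, in APAP liver 8. Gavage vehicle livers lay at 3.52% ± 0.795 (SD, n = 13) with a range of 2.70% to 5.29%, and the intravenous saline livers at 4.56% and 2.39%. The ratio of the CCl4 mean to the saline mean was 2.18, and 2.29 with mitochondrially encoded transcripts left out of the total. APAP livers held 4.93% ± 1.12 (SD, n = 6), TAA livers 4.56% ± 0.809 (SD, n = 5) and GAL livers 5.22% ± 0.240 (SD, n = 4), which were 1.40, 1.30 and 1.43 times their route vehicle. ANIT livers (3.66% ± 0.262, SD, n = 4), MDA livers (3.79% ± 0.502, SD, n = 7) and ConA livers (2.93% ± 0.727, SD, n = 7) overlapped their vehicles, as did APAP livers (3.61% to 6.80%) and TAA livers (3.37% to 5.48%). After TMM scaling the GAL livers fell from above to below their controls, at 30120 to 31386 summed CPM against 33007 and 40708, while CCl4 livers stayed the highest group at 50860 to 67108, overlapped by MDA liver 2 (66199), APAP liver 8 (54428), TAA liver 1 (59372) and ConA liver 11 (53633). The ratio of summed large-subunit to summed small-subunit values was 1.25 to 1.41 over all 57 livers. In CCl4 livers it was 1.25 to 1.33, below both saline livers (1.40 and 1.35), a difference that was not tested.

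**Figure D1:**
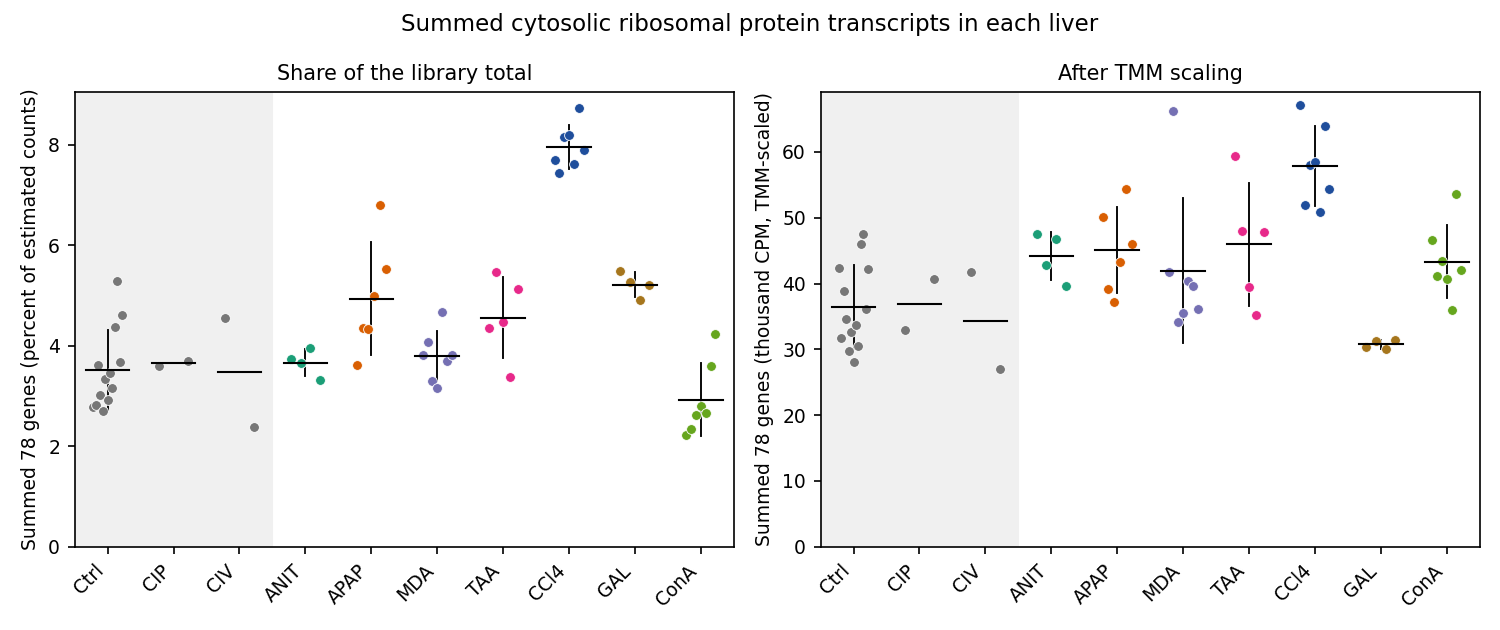
Summed level of the 78 genes in each of 57 livers, as percent of the library total (left) and as TMM-scaled CPM divided by 1000 (right). Points are livers, lines are group means, vertical bars are SD for groups of more than 2, and grey shading marks the vehicles (Ctrl gavage methylcellulose, CIP intraperitoneal saline, CIV intravenous saline). The CCl4 livers lie at 7.43% to 8.72%, above every other liver on the left, and the GAL livers move from above their controls on the left to below them on the right.

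In every comparison below that gives 0 lower members under TMM, edgeR's counts at an unadjusted p under 0.05 in either direction were 35 (ANIT, beside 5532 of 14072 genes), 53 (APAP, 5807 of 13939), 21 (MDA, 5873 of 13522), 51 (TAA, 8023 of 14360), 69 (CCl4, 6690 of 15365) and 12 (ConA, 6314 of 14132). ANIT's count was near the share of all genes, and those with MDA and ConA were below it. DESeq2 called 0 lower with the first 5 and 1 with ConA. The shares of all genes called lower, against which these counts are to be read, were 14.2% (ANIT), 14.6% (APAP), 16.4% (MDA), 24.0% (TAA), 15.6% (CCl4) and 17.3% (ConA) under TMM. Under library-total scaling they were 18.8% (ANIT), 8.00% (APAP), 14.4% (MDA), 21.0% (TAA), 7.14% (CCl4) and 5.42% (GAL).

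After CCl4, 64 of the 78 genes were called higher and 0 lower under TMM, against 18.0% of all genes higher. With library-total scaling 77 were higher and 0 lower, against 29.7%; the exception was Rps4l. The median log2 change of the 78 was 0.71 (range -0.24 to 1.33) under TMM and 1.15 (0.19 to 1.74) under library-total scaling. Against all 17 vehicle livers, 72 (TMM, background 26.3%) and 77 (library total, background 50.3%) were higher and 0 lower (backgrounds 27.0% and 12.2%). Every CCl4 liver lay above every one of the 17 vehicle livers for 37 genes under TMM (background 9.61%) and for 71 under library-total scaling (background 20.1%). Of the large-subunit genes 39 of 46 were higher under TMM and of the small-subunit genes 25 of 32, and 46 and 31 under library-total scaling. Without saline liver 7 the TMM count was 33 of 78 (12.7% of all genes), and it was 33 to 63 over the 9 ways of leaving out 1 liver (8.72% to 18.9% of all genes).

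Rpl5 and Rps12 were among the 3 largest rises with CCl4. Rpl5 (ENSMUSG00000058558.13), which carries the small 5S ribosomal RNA and can bind MDM2, lay at 319, 239, 208, 302, 226, 128 and 225 CPM (livers 1, 5, 6, 8, 10, 11 and 12) against 105 and 87.1 in the saline livers. Liver 11 was the lowest of the 7 and still above both saline livers, and the log2 change was 1.33 ± 0.31 (SE; adjusted p = 0.00921), which missed the threshold without saline liver 8 (1.18). Rps12 (1271 to 1612 CPM against 566 and 706) rose by 1.16 ± 0.14 (SE; adjusted p = 0.000262). In the same livers the summed hepatocyte markers were lower, at 26817 to 36883 CPM of the library total against 51786 and 68472 with saline, and the 5 proliferation markers Mki67, Top2a, Ccnb1, Cdk1 and Birc5, all above 0 in every CCl4 liver, summed to 5.03 to 13.2 CPM against 1.20 to 6.47 in the 17 vehicle livers. Neutrophil markers summed to 13.7 to 89.5 CPM against 2.85 and 3.68 with saline, where Ly6g and Mmp8 were at 0 in both livers. The part of any of these in the rise was not tested.

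With TAA, 43 genes were higher and 0 lower under TMM (background 26.4% higher) and 34 higher under library-total scaling (background 23.9%). The median log2 changes were 0.40 and 0.38. Rpl12 (ENSMUSG00000038900.18), a protein at the base of the stalk where elongation factors bind, showed the largest rise of any member. It lay at 122, 122, 135, 129 and 135 CPM (livers 1, 3, 6, 7 and 8), and every TAA liver was above every gavage vehicle liver (49.0 to 106, median 63.7). Its log2 change was 0.96 ± 0.15 (SE; adjusted p = 3.72e-05) and stayed between 0.95 and 0.98 whichever TAA liver was left out. Rps14 of the small subunit (0.80 ± 0.16, SE; adjusted p = 0.000455) and Rpl18 (0.75 ± 0.14, SE; adjusted p = 0.000129) followed. Besides Rpl12, Rps6 and Rpl5 lay above every gavage vehicle liver in every TAA liver, 3 of 78 against 10.5% of all genes (1 of 78 against 7.66% under library-total scaling). Without TAA liver 1 the count of higher members was 28 (26.2% of all genes). The 6 neutrophil markers S100a8, S100a9, Retnlg, Ly6g, Cxcr2 and Mmp8 were all detected in TAA livers, with Ly6g at 0 in every gavage vehicle liver, and their sum lay at 113 to 756 CPM in TAA livers against 0.454 to 55.2 in gavage vehicle livers, and their part was not tested.

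With APAP, 38 genes were higher and 0 lower under TMM (background 17.3% higher), and 51 higher under library-total scaling (background 21.0%). The median log2 changes were 0.36 and 0.50. Rps23, which sits in the decoding centre, rose most (0.67 ± 0.13, SE; adjusted p = 0.000656), followed by Rpl27a (0.63 ± 0.22, SE; adjusted p = 0.0308) and Rpl12 (0.62 ± 0.15, SE; adjusted p = 0.00419). Rpl27a lost its call without APAP liver 1 or liver 8. Rps6, the substrate of the S6 kinases, was the 1 gene for which the APAP livers (446 to 737 CPM, median 508) did not overlap the gavage vehicle livers (313 to 445, median 351), against 2.17% of all genes above without overlap. Under library-total scaling there was none (background 2.79%). The count of higher members was 25 without liver 1 (14.5% of all genes) and 20 without liver 8 (14.7%). The 6 neutrophil markers given above for TAA, of which Ly6g was at 0 in at least 1 APAP liver, summed to 236 CPM in liver 8 and 303 in liver 11, against 12.5 to 27.1 in the other 4 APAP livers and up to 55.2 with gavage vehicle. Liver 8 also had the highest summed ribosomal protein share of the group, and the part of the neutrophil markers was not tested.

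ANIT and MDA gave fewer calls, and those depended on the scaling. With ANIT, 20 genes were higher and 0 lower under TMM (background 14.0% higher), and 1, Rpl5, under library-total scaling (background 5.86%). The ANIT livers lay above all gavage vehicle livers for 8 genes under TMM (background 4.39%) and for none under library-total scaling (background 1.38%). Rps27, a zinc-binding small-subunit protein, lay at 889, 1033, 1105 and 967 CPM with ANIT against 495 to 859 (median 662) in gavage vehicle livers. Its log2 change was 0.60 ± 0.12 (SE; adjusted p = 0.00101) under TMM and 0.38 (not called) under library-total scaling. Rpl5 (0.63 ± 0.14, SE; adjusted p = 0.0029) was among the 3 largest rises. The count of higher members was 13 without ANIT liver 1 (13.5% of all genes) and 10 without liver 3 (8.46%). The 5 proliferation markers summed to 0.352 to 1.22 CPM in ANIT livers against 1.20 to 6.47 with gavage vehicle, with Ccnb1 at 0 in every ANIT liver and the ranges overlapping at their edges, and their part was not tested.

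With MDA, 13 genes were higher and 0 lower under TMM, against a background of 17.4%, so the share called was near the background. Under library-total scaling 5 genes were higher (background 11.5%), among them Rpl4, Rpl5, Rpl23 and Rps27a, and Rps4l was lower. MDA liver 2 stood apart: its summed TMM-scaled level was 66199 CPM against 34216 to 41727 in the other 6, its mitochondrial share was 24.3%, and without it 6 genes were higher and 2, Rps4l and Rpl35a, lower. Shares of all genes in that fit were 17.4% higher and 16.0% lower. Without liver 8, 7 were higher (14.2% of all genes). Rpl5 (0.68 ± 0.13, SE; adjusted p = 0.000448), Rps27a (0.56 ± 0.15, SE; adjusted p = 0.00692) and Rpl23 (0.52 ± 0.12, SE; adjusted p = 0.00204) rose most and were called without liver 2 too, at 0.61, 0.36 and 0.37. Rps27a encodes ubiquitin fused to a small-subunit protein, and Rpl23 is another large-subunit protein that binds MDM2.

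With GAL, as with ConA below, the family's median change had opposite signs under the 2 scalings. Under TMM the median log2 change of the 78 genes was -0.19, with 5 called lower (background 15.7%) and 1 higher (background 12.8%), whereas under library-total scaling it was 0.58, with 39 higher (background 35.5%) and 0 lower (58 at an unadjusted p under 0.05). Under both, the members lay below the median of all genes (0.08 and 0.84). Against all 17 vehicle livers 14 were lower (background 27.5%) and 1, Rpl5, higher (background 25.1%) under TMM, and 64 were higher (background 54.6%) and 0 lower (background 11.5%) under library-total scaling. Under TMM the GAL livers lay below both saline livers for 34 genes (background 29.5%) and above both for 4 (background 26.3%), whereas under library-total scaling they lay above both for 69 (background 51.9%) and below both for 0 (background 10.6%). Rpl41, the smallest ribosomal protein, lay at 883, 899, 851 and 847 CPM (livers 2, 4, 7 and 8) against 1255 and 1662 with saline. It fell by 0.74 ± 0.15 on the log2 scale (SE; adjusted p = 0.0141) under TMM and stood at 0.04 (not called) under library-total scaling. Rps21 (-0.71 ± 0.15, SE; adjusted p = 0.0175), the stalk protein Rplp1 (-0.66 ± 0.14, SE; adjusted p = 0.0172), Rps27l (-0.62) and Rpl10 (-0.59) were the others called lower, and their values under library-total scaling were 0.06, 0.12, 0.16 and 0.16. Over the 6 fits that left out 1 liver, Rps21 kept its call in 1 and Rplp1 in 2. Rps4l, a paralog of Rps4x, was called higher under both scalings, with 47.4, 54.3, 50.01 and 45.7 CPM against 34.5 and 30.4, a log2 change of 0.60 ± 0.17 (SE; adjusted p = 0.0427) under TMM and 1.36 under library-total scaling. These calls rest on 2 saline and 4 GAL livers: under TMM, leaving out GAL liver 2 gave 3 higher and 8 lower members (20.6% and 21.9% of all genes), and leaving out any other liver gave 0 higher. The count lower was 3 without saline liver 7, 1 without GAL liver 4 or 7, and 0 without saline liver 8 or GAL liver 8, and Rps4l kept its call in 1 of 6 such fits. In the 5 fits other than that without GAL liver 2, 6.15% to 12.2% of all genes were lower. The 8 Kupffer cell and macrophage markers (Clec4f, Vsig4, Timd4, Cd5l, Marco, Adgre1, Lyz2 and Cd68), all above 0 in both groups, summed to 896 to 1272 CPM in GAL livers against 352 and 487 with saline. Monocyte markers (110 to 193 CPM against at most 24.0), neutrophil markers (33.3 to 57.2 against 2.85 and 3.68), sinusoidal endothelial markers (166 to 229 against 84.3 and 117), stellate cell markers (133 to 291 against 58.6 and 84.6) and cholangiocyte markers (92.1 to 148 against 30.4 and 62.8) were also higher in every GAL liver than in both saline livers. All these sums are CPM of the library total, a scale on which the median of all genes also rose with GAL (0.84). TMM factors were 1.63 to 1.81 in GAL livers against 1.09 and 0.908 in saline livers, so these sums need not all lie apart under TMM. The part of any of these markers was not tested.

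With ConA, 5 genes were higher and 0 lower under TMM (background 16.8% higher), and 0 higher and 2 lower under library-total scaling (backgrounds 7.78% and 26.4%; 4 at an unadjusted p under 0.05 in either direction), so the family's median log2 change was 0.34 under TMM and -0.28 under library-total scaling. Among the 5 were Rps13, Rps27, Rpl5 and Rps6, and the 2 were Rps27l and Rpl39. Against all 17 vehicle livers 49 were higher and 1 (Rps27l) lower under TMM (backgrounds 34.0% and 34.1%), and 0 higher and 30 lower under library-total scaling (backgrounds 17.0% and 50.8%). Rps27 lay at 1165, 1102, 1197, 1057, 1002, 1316 and 1134 CPM (livers 2, 3, 4, 5, 8, 11 and 12) against 733 and 502 with saline, and all 7 exceeded the highest of the 17 vehicle livers (859). Its log2 change was 0.94 ± 0.23 (SE; adjusted p = 0.0118), and 0.31 (not called) under library-total scaling. Rps13 rose by 0.95 ± 0.27 (SE; adjusted p = 0.0217). The 2 saline livers differed from each other, with 6.79% and 25.4% mitochondrial transcript and 4.56% and 2.39% ribosomal protein transcript. Without saline liver 7, 17 members were higher (12.3% of all genes), and without saline liver 8, 0 were (13.8%). Without ConA liver 2, 4 or 11 the count was 3 (14.9% to 16.3%). ConA livers held 14.6% to 39.3% mitochondrial transcript and the same 8 Kupffer cell and macrophage markers, all above 0, summed to 44.4 to 134 CPM against 348 and 411 with saline. Neutrophil markers summed to 93.1 to 193 CPM against 5.67 and 6.38, with Ly6g at 0 in both saline livers and at least 1 ConA liver. The 6 hepatocyte markers, all above 0, summed to 35292 to 51962 CPM against 58368 and 61756, and the 5 sinusoidal endothelial markers to 47.0 to 86.2 against 92.5 and 108. In these 4 marker sums, all in CPM of the library total, the ConA and saline livers did not overlap. Their shares of mitochondrial transcript did. On that scale the median of all genes also fell with ConA. TMM factors were 0.477 to 1.01 in ConA livers against 1.09 and 0.886 in saline livers, so the hepatocyte and endothelial sums need not lie apart under TMM. The part of any of these in the result was not tested.

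**Figure D2:**
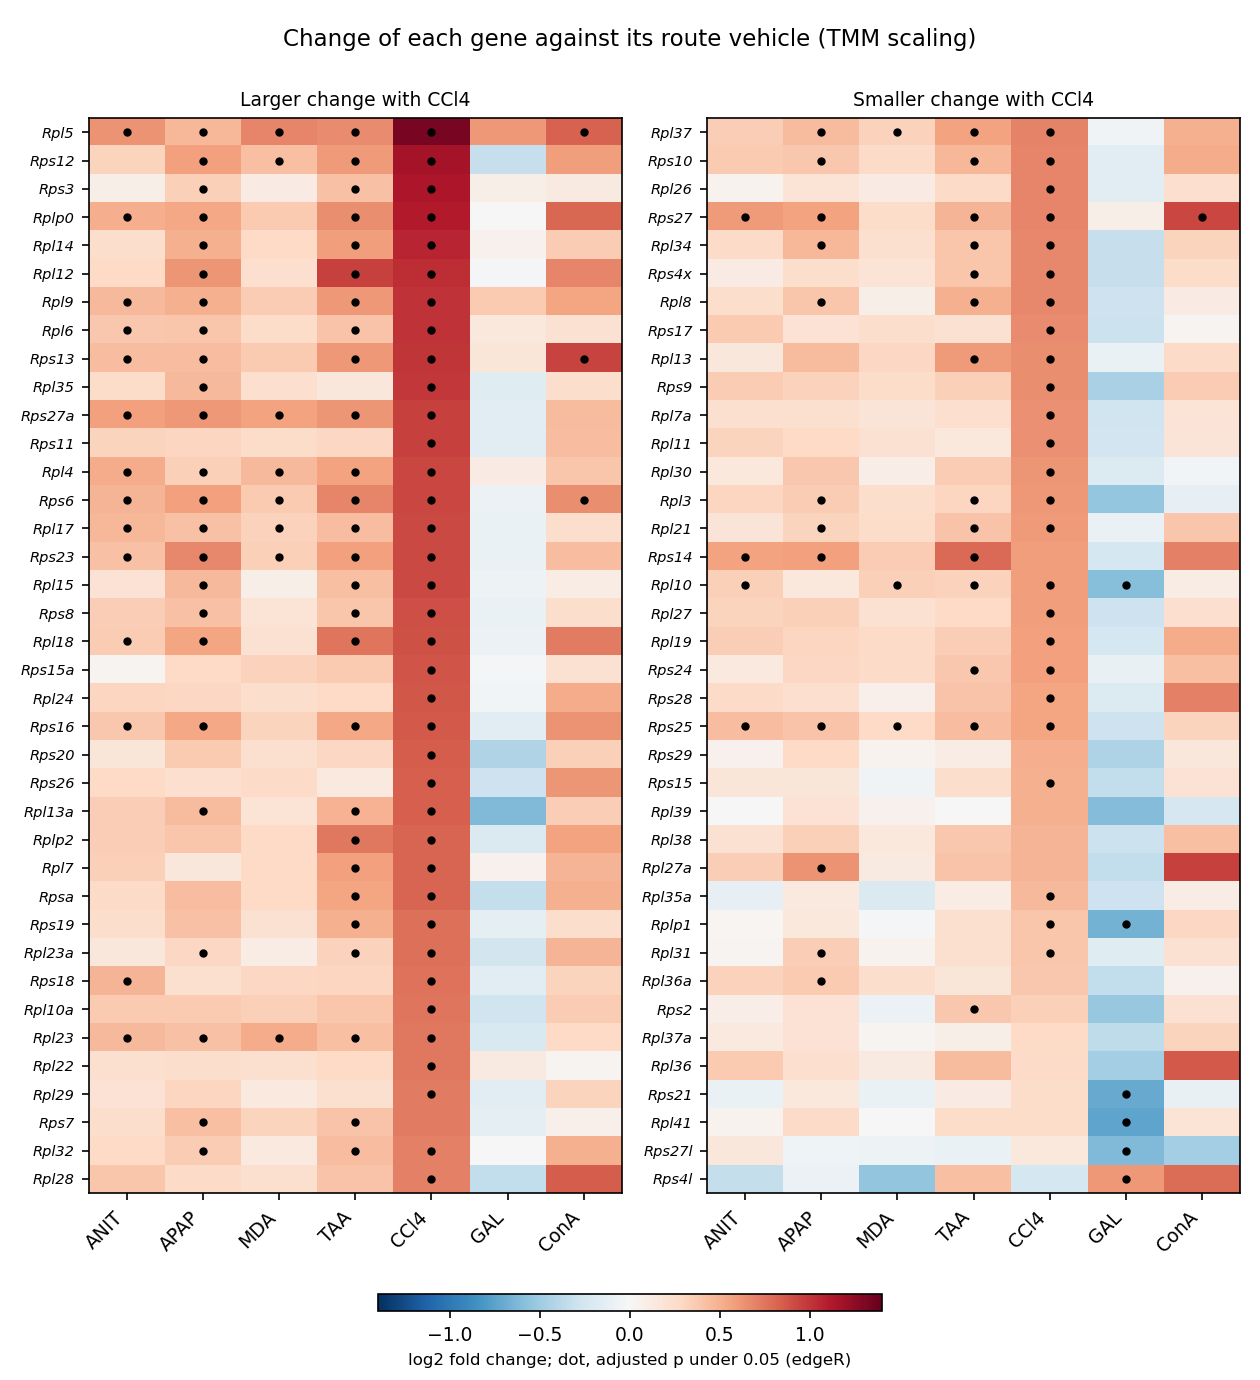
Log2 fold change of 76 of the 78 genes against its route vehicle under TMM scaling, ordered by the change with CCl4. Columns are compounds, colour is the log2 fold change, and a dot marks an adjusted p under 0.05 (edgeR). The CCl4 column holds 62 dots and the GAL column 6, of which 5 mark lower values, which are at 0.04 to 0.16 under library-total scaling.

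**Figure D3:**
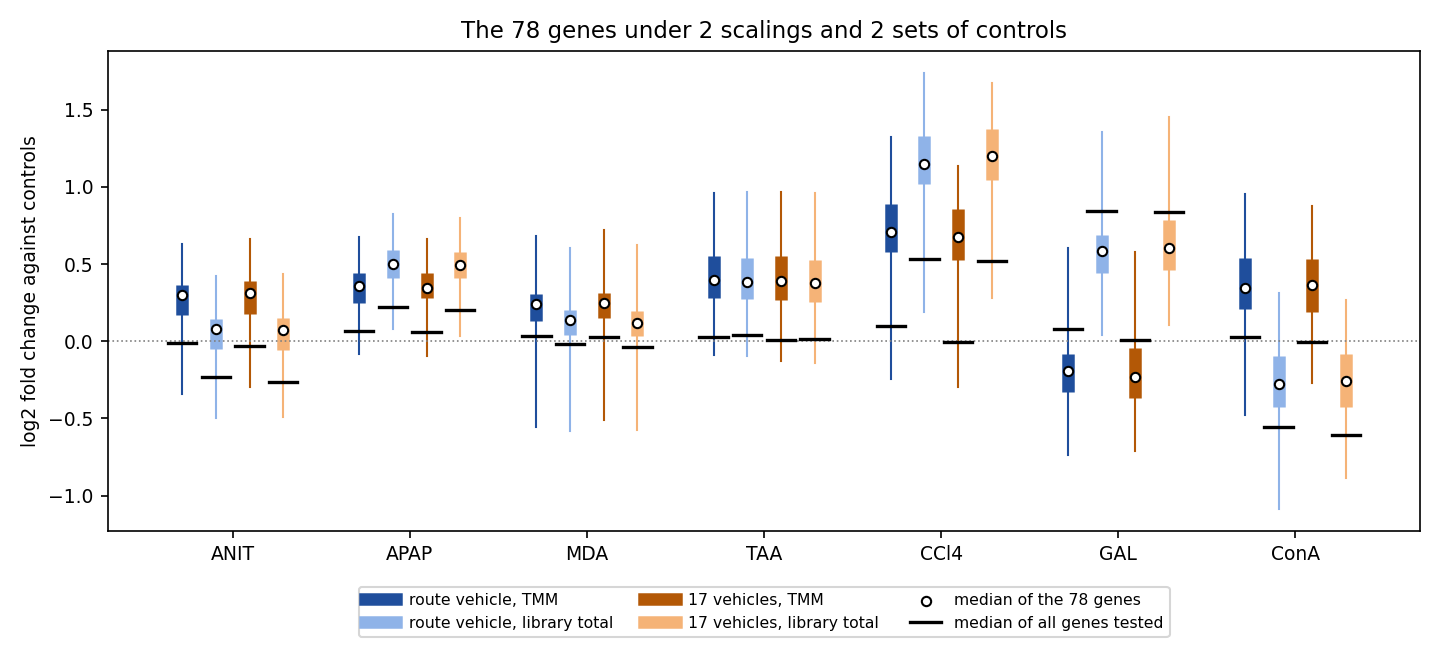
Log2 fold changes of the 78 genes for each compound against route vehicle or all 17 vehicle livers, under TMM or library-total scaling. Thin lines span all 78 genes, thick bars the middle 50% of them, circles their median and black lines the median of all genes tested. The circles lie above the black line for 6 compounds under both scalings and below it for GAL, and the sign of the median turns with the scaling for GAL (-0.19 and 0.58) and ConA (0.34 and -0.28).

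Against all 17 vehicle livers the gavage compounds gave 21 (ANIT, background 13.5%), 42 (APAP, 18.1%), 17 (MDA, 17.2%) and 46 (TAA, 25.2%) members higher under TMM and 0 lower, with backgrounds of 14.5%, 15.3%, 17.1% and 24.5% lower. Under library-total scaling they gave 1 (background 5.86%), 57 (21.3%), 5 (11.4%) and 33 (23.1%) higher. With backgrounds of 20.5%, 8.92%, 16.3% and 21.9% lower, the 1 member lower there was Rps4l, with MDA. The comparisons with gavage compounds share 13 control livers, and those with CCl4 and GAL share 2, so calls across compounds are given side by side only. Rpl10 and Rplp1 were called in both directions under TMM, higher with CCl4 (Rpl10 also with ANIT, MDA and TAA) and lower with GAL. The calls with CCl4 and GAL depended on single saline livers (edgeR): Rpl10 lost its call with GAL without liver 7 (-0.48; adjusted p = 0.139) or liver 8 (-0.69; adjusted p = 0.0726), and with CCl4 without liver 8 (0.53; adjusted p = 0.074). Rplp1 lost its call with GAL without saline liver 8 (-0.60), and also without GAL liver 4 (-0.68), 7 (-0.60) or 8 (-0.64). Rpl10, which joins the large subunit late in its assembly, lay at 387 to 462 CPM in GAL livers, 644 and 683 with intraperitoneal saline and 869 to 1172 with CCl4, so that the 3 groups did not overlap. In library-total scaling its change with GAL was 0.16 and not called.

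The stalk of the large subunit, which recruits elongation factors, is formed by Rplp0 with Rplp1 and Rplp2. Rplp0 rose with ANIT (0.51), APAP (0.55), TAA (0.65) and CCl4 (1.11 ± 0.18, SE; adjusted p = 0.00117) under TMM, with CCl4 livers at 1149 to 1692 CPM against 577 and 754. Under library-total scaling its ANIT value of 0.30 was not called and its GAL value of 0.78 was. Rplp2 rose with TAA (0.74) and CCl4 (0.82). Rplp1, the highest of all 78 genes by mean level, rose by 0.39 ± 0.12 with CCl4 (SE; adjusted p = 0.032), and lost that call without saline liver 7 (0.31; adjusted p = 0.199) or liver 8 (0.49; adjusted p = 0.0636). In intravenous saline liver 8 it was at 422 CPM against 2170 in liver 7. Rpsa, a small-subunit protein also known as the laminin receptor, rose with TAA (0.56) and CCl4 (0.81).

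Several members have known roles outside the ribosome. Rps6 rose under TMM with every compound but GAL, from 0.36 with MDA to 0.94 with CCl4. Under library-total scaling it lacked a call with ANIT, MDA and ConA (0.05 with ConA). In GAL livers (338, 332, 333 and 348 CPM) it lay close to the saline livers (360 and 357). Among the proteins that bind MDM2, Rpl5 rose under TMM with every compound but GAL. With GAL its 0.61 missed the threshold (edgeR, adjusted p = 0.0581), while its 1.36 under library-total scaling was called. With ConA it was not called higher under library-total scaling. Rpl23 rose with all 4 gavage compounds and CCl4 under TMM, and Rpl11 rose with CCl4 (0.64). With ANIT, Rpl23 was not called under library-total scaling. Its change with CCl4 was 0.60 without saline liver 7 and 0.91 without saline liver 8. Rpl13a, known for translational silencing when released from the ribosome, rose with APAP (0.44), TAA (0.49) and CCl4 (0.83). Rps3, which also acts in DNA repair, rose with the same 3 (0.33, 0.41 and 1.13). Rpl22 rose with CCl4 (0.74). Under library-total scaling with CCl4 these genes changed by 1.08 (Rpl11) to 1.74 (Rpl5).

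Paralogs did not all follow their partners. Rps27l, a paralog of Rps27 known as a p53 target, was not called higher with any compound under TMM (with CCl4 it was under library-total scaling, by 0.60), and lay at 295 to 402 CPM in CCl4 livers and 297 and 337 with saline. Rps27 in the same livers was at 855 to 1356 against 567 and 850, with a log2 change of 0.68, which was 0.44 and not called without saline liver 7 (edgeR, adjusted p = 0.232) and 0.98 without liver 8. In ConA livers Rps27l (207 to 294) lay below both saline livers (319 and 376) while Rps27 lay above both. Rps4l, the lowest member by mean level, was at 22.7 to 34.2 CPM with CCl4 and 30.4 and 34.5 with saline, while Rps4x rose from 346 and 386 to 488 to 693 (0.67). Rps4l and Rps4x are near copies, so reads shared between them are split by the quantifier and these values are uncertain. Processed copies of ribosomal protein genes are common in the mouse genome: the 288 rows named as such summed to 0.0311% to 0.119% of the counts, and their share of reads that belong to members cannot be told apart.

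To ask which members departed from the rest, each liver was also scaled to its summed 78 genes. On this scale 4 genes lay above and 8 below with CCl4, 14 above and 10 below with TAA, 6 and 5 with MDA, 4 and 3 with ANIT, 4 and 1 with APAP, 3 and 0 with GAL, and 2 and 3 with ConA. Shares of all genes called in these fits were 5.41% higher and 35.7% lower with CCl4 and 13.4% and 34.8% with TAA. For MDA they were 7.12% and 19.5%, for ANIT 4.14% and 21.7%, for APAP 6.74% and 23.9%, for GAL 16.4% and 10.6%, and for ConA 9.69% and 25.3%. Rps27a lay above the family with ANIT, APAP, MDA and TAA, at 0.23 to 0.33. Rpl12 lay above it with TAA (0.64 ± 0.12, SE; adjusted p = 0.000207), and Rpl5 with GAL (0.84) and MDA (0.47). Rps21, a small protein of the small subunit, lay below the family with ANIT (-0.37), MDA (-0.28), TAA (-0.27) and CCl4 (-0.43). Rps27l lay below it with APAP (-0.41), TAA (-0.50), CCl4 (-0.53) and ConA (-0.88 ± 0.26, SE; adjusted p = 0.0234), and Rpl39, which lines the exit tunnel, with TAA (-0.38) and ConA (-0.72). Rps4l lay below with MDA (-0.76) and CCl4 (-0.95) and above with GAL (0.84).

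**Figure D4:**
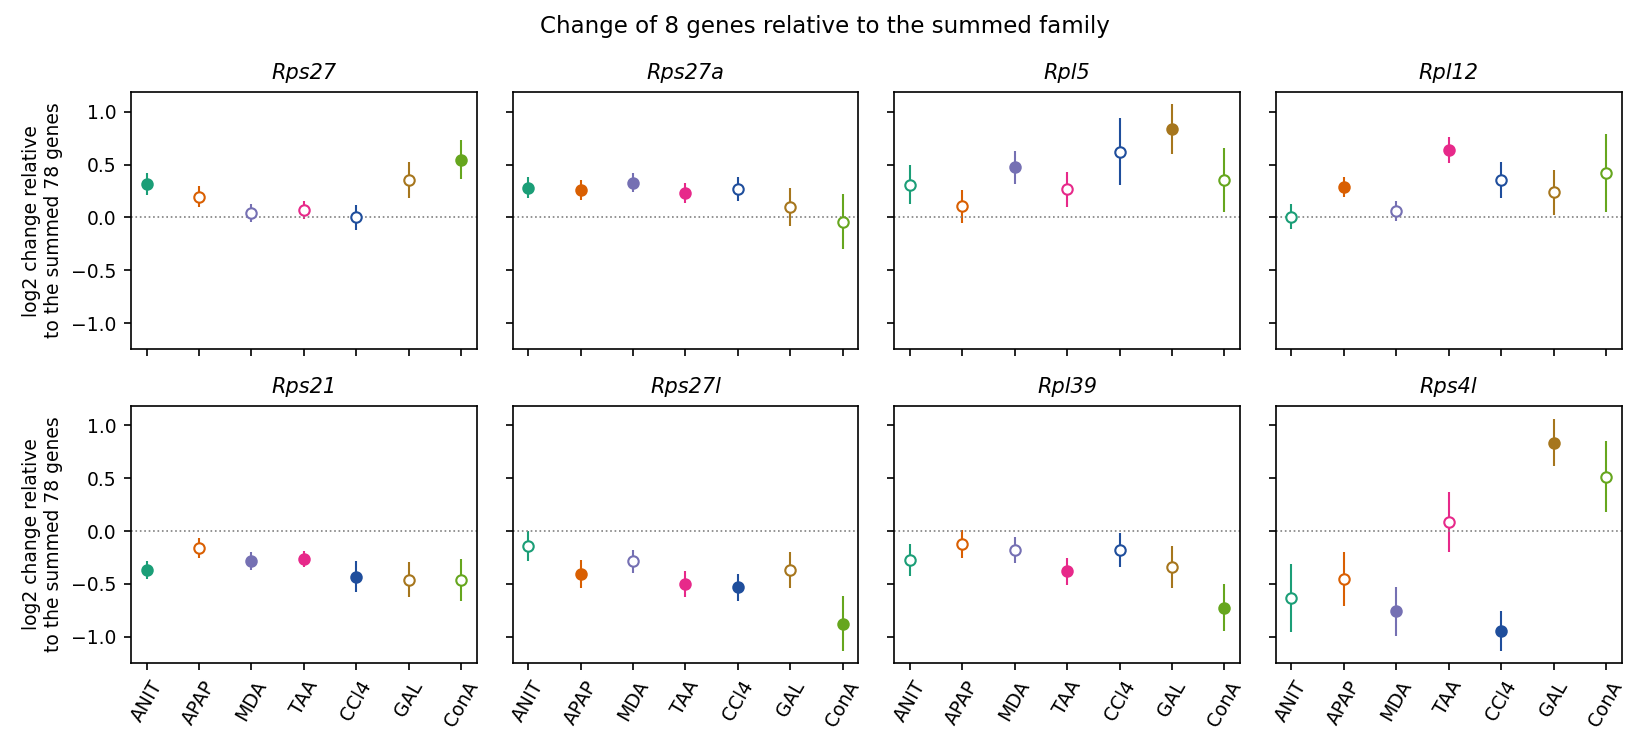
Log2 change of 8 genes after scaling each liver to its summed 78 genes, by compound against route vehicle. Points are estimates, bars are SE, and filled points have an adjusted p under 0.05 (edgeR). Rps27a lies above 0 with the 4 gavage compounds, Rps21 and Rps27l lie below 0 with all 7 compounds, and Rps4l runs from -0.95 with CCl4 to 0.84 with GAL.

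Across the 57 livers the members rose and fell together. Each gene's TMM-scaled level, on a log2 scale, was correlated with the summed rest, and the median Pearson r was 0.87, with 58 of 78 genes above 0.8. Over the 17 vehicle livers alone the median was 0.84 and 45 genes exceeded 0.8. These correlations are across livers that share scaling and group differences and are given as a description. The lowest were Rps4l (0.03), Rps27l (0.46) and Rpl5 (0.55), and over the vehicle livers Rpl5 had r = -0.19, Rpl17 -0.16 and Rpl4 -0.13. Rplp1, Rpl41 and Rps2 had the highest mean levels, and Rps4l, Rpl12 and Rpl5 the lowest, on a scale that looks corrected for length. Across the 78 genes, the Spearman's rho between the level in vehicle livers outside each comparison and the change under TMM was -0.03 with ANIT, -0.28 with APAP, -0.15 with MDA, -0.22 with TAA, -0.29 with CCl4, -0.44 with GAL and 0.10 with ConA. With GAL the median log2 change was -0.48 for the 10 highest genes and -0.06 for the 10 lowest. Genes with a pyrimidine run as in the sequences shown above had a median log2 change of 0.71 with CCl4 (19 of 21 higher) and those without one 0.71 (28 of 36). With ConA the medians were 0.42 with a run and 0.26 without (2 of 21 and 2 of 36 higher), and -0.23 and -0.35 under library-total scaling. With MDA they were both 0.25, with 1 of 21 and 8 of 36 higher. For ANIT, APAP, TAA and GAL the medians of both classes differed by 0.05 or less under either scaling. No difference between the classes was tested.

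Other genes of ribosome production and translation were counted from fixed lists. Beside these counts, the shares of all genes higher and lower under TMM were 18.0% and 15.6% with CCl4, 26.4% and 24.0% with TAA, 12.8% and 15.7% with GAL, 16.8% and 17.3% with ConA, 17.4% and 16.4% with MDA, 17.3% and 14.6% with APAP, and 14.0% and 14.2% with ANIT. Under library-total scaling they were 29.7% and 7.14% with CCl4, 23.9% and 21.0% with TAA, 35.5% and 5.42% with GAL, 7.78% and 26.4% with ConA, 11.5% and 14.4% with MDA, 21.0% and 8.00% with APAP, and 5.86% and 18.8% with ANIT. Of 38 ribosome biogenesis genes, which process ribosomal RNA and assemble subunits, 35 were higher with CCl4, 36 with TAA, 33 with GAL, 28 with ConA, 22 with ANIT, 18 with MDA and 17 with APAP under TMM, and none was lower. Their median log2 changes were 1.38 with CCl4, 1.37 with TAA, 1.88 with GAL and 1.33 with ConA, beside member medians of 0.71, 0.40, -0.19 and 0.34. Under library-total scaling 37, 35, 37 and 7 of the 38 were higher with these 4 compounds, and 1 was lower with ConA. Nop58, a core protein of box C/D particles, rose by 2.92 ± 0.61 with CCl4 (SE; adjusted p = 0.00559), 2.61 ± 0.27 with TAA (SE; adjusted p = 1.83e-07), 3.33 ± 0.80 with GAL (SE; adjusted p = 0.026) and 2.81 ± 0.64 with ConA (SE; adjusted p = 0.00747). Gnl3, a nucleolar GTPase, rose with the same 4 by 2.36, 2.64, 2.91 and 2.85. With GAL, 33 biogenesis genes were higher under the scaling in which 5 ribosomal protein genes were lower and 1 higher.

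Of 19 translation factors and other genes with TOP mRNAs, 16 were higher with ANIT, 10 with APAP, 9 with MDA, 17 with TAA, 15 with CCl4, 5 with GAL and 7 with ConA under TMM, and none lower. With library-total scaling the counts were 7, 14, 7, 16, 19, 17 and 0. Npm1, a nucleolar chaperone, rose by 2.80 with CCl4, 1.93 with TAA and 1.77 with GAL, and Nap1l1 by 1.98, 1.65 and 1.85. Of 24 initiation factors, 20 were higher with TAA, 18 with CCl4, 15 with ANIT, 12 with MDA, 11 with GAL, 4 with APAP and 4 with ConA under TMM, the last 2 counts being near the shares of all genes (17.3% and 16.8%). One, Eif1, was lower, with GAL. Under library-total scaling 18, 22, 7, 10, 18, 9 and 1 were higher in the same order of compounds, and 0 lower. Eif6, which keeps the subunits apart until the large one is mature, was among the 3 largest changes of this list with all 7 compounds, from 1.06 with MDA to 3.03 with ConA. Of 78 mitochondrial ribosomal proteins, 13 were higher and 11 lower with CCl4 (against 18.0% and 15.6% of all genes, so near the background), 7 and 17 with TAA, 2 and 16 with GAL, 2 and 24 with ConA, 2 and 16 with MDA, 1 and 17 with APAP, and 7 and 8 with ANIT under TMM. With library-total scaling 38 were higher and 0 lower with CCl4 (backgrounds 29.7% and 7.14%), 4 and 14 with TAA (23.9% and 21.0%, the latter near the list's share), 19 and 1 with GAL (35.5% and 5.42%, both above the list's shares), 0 and 39 with ConA (7.78% and 26.4%), 1 and 20 with MDA (11.5% and 14.4%), 3 and 3 with APAP (21.0% and 8.00%), and 1 and 19 with ANIT (5.86% and 18.8%).

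Of 16 genes of RNA polymerase I and the regulators of ribosome production, 6 were higher and 1 lower with ANIT, 5 and 3 with APAP, 5 and 1 with MDA, 10 and 4 with TAA, 7 and 1 with CCl4, 5 and 1 with GAL, and 5 and 1 with ConA under TMM, with 15 of the 16 tested for MDA, CCl4 and ConA. Under library-total scaling the counts were 4 and 1 with ANIT, 6 and 0 with APAP, 4 and 0 with MDA, 9 and 2 with TAA, 11 and 0 with CCl4, 11 and 0 with GAL, and 2 and 1 with ConA. Myc, a transcription factor that activates ribosome genes, rose with all 7 compounds under TMM, by 1.85 ± 0.41 (SE) with ANIT, 3.10 with APAP, 2.17 with MDA, 4.65 ± 0.36 (SE) with TAA, 4.15 ± 0.27 (SE) with CCl4, 3.35 with GAL and 5.74 ± 0.51 (SE) with ConA. Eif4ebp1, a target of mTOR that holds back initiation, rose with every compound except GAL (0.08, and 0.85 with a call under library-total scaling), most with CCl4 (2.20) and ConA (2.19). Among 8 genes of ribosomal stress and surveillance, Cdkn1a, a p53 target that halts the cell cycle, rose with all 7 by 2.01 (CCl4) to 4.33 (ConA), and Mdm2 with all 7 by 0.65 (APAP) to 2.52 (GAL), though its ANIT value of 0.61 was not called under library-total scaling. In all, 4, 2, 2, 5, 6, 6 and 5 of the 8 were higher with ANIT, APAP, MDA, TAA, CCl4, GAL and ConA, and 1 was lower, with ANIT. Counts of this list under library-total scaling are not given here. Of 6 ribosomal protein genes and paralogs outside the symbol rule, 2 were higher with ANIT, TAA and CCl4 and 1 with APAP and MDA. Rps3a1 rose with the 4 gavage compounds (0.43 to 0.65) and CCl4 (1.00), while 2 of the 6, among them Rpl36al (-0.90), fell with GAL under TMM. Under library-total scaling 2 of the 6 were higher with GAL and 0 lower.

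**Figure D5:**
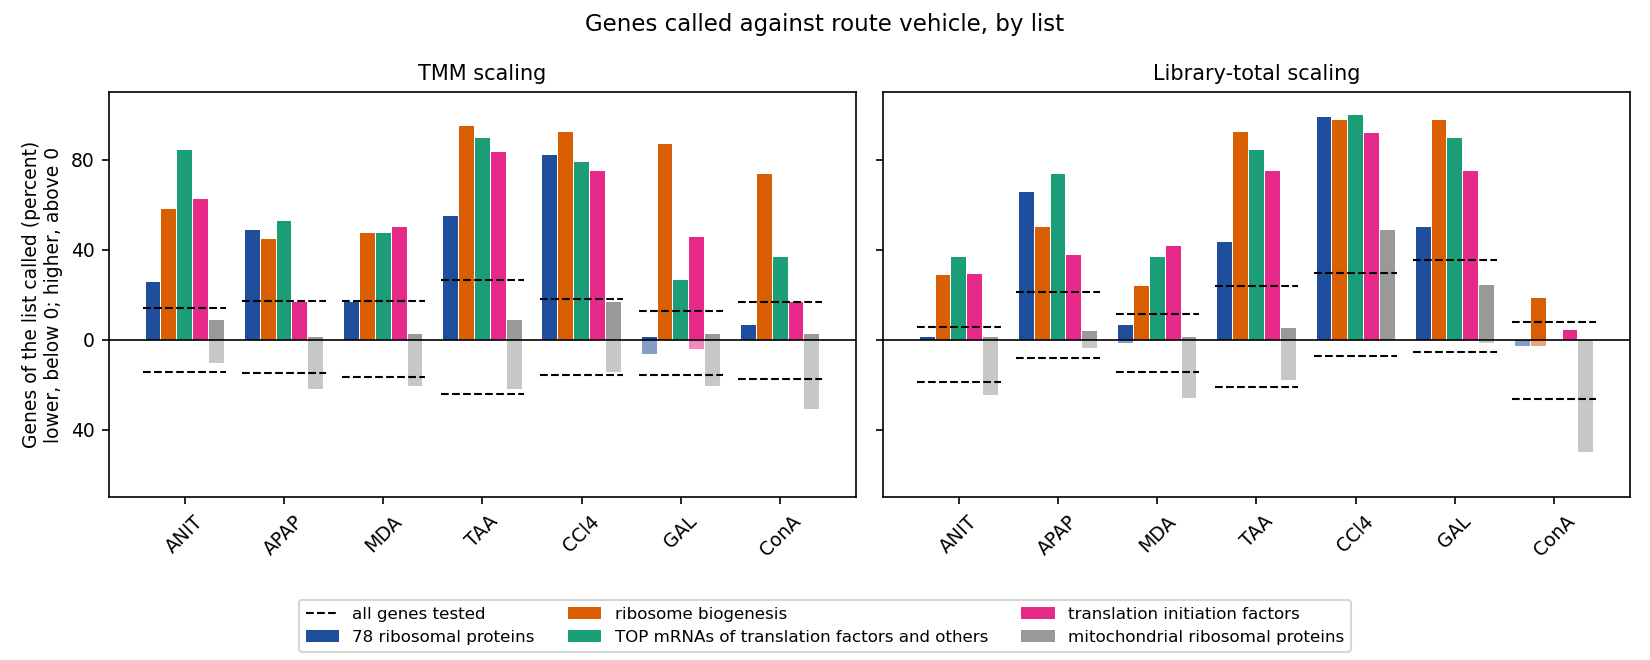
Percent of the 78 genes and of 4 fixed lists called higher (above 0) or lower (below 0, paler) against route vehicle, under TMM (left) and library-total scaling (right). Dashed lines give the percent of all genes tested. With GAL the biogenesis bar (33 of 38 higher) stands beside 1 of 78 ribosomal protein genes higher on the left, and 39 of 78 on the right.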

How the data were processed

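The deposited file holds estimated counts, with genes by Ensembl identifier in rows and livers in columns, made with Salmon 1.6.0, R 4.1.3 and the build GRCm39 per the submitters' processing notes. No header states a length correction, but a gene's lowest non-zero value was inversely ordered with its length (rho of Spearman -0.959, taken over 6065 genes with 1 transcript that were above 0 in 2 to 20 livers), so levels between genes are treated as per length and may not be true counts. Of 54307 identifiers, 51482 took a symbol from names of GENCODE M21 and 2825 had none. All columns were mapped from the labels. The estimated counts were rounded to whole numbers and tested in edgeR 4.0.16 (limma 3.58.1, R 4.3.3) with filterByExpr, TMM, the quasi-likelihood test and Benjamini-Hochberg adjustment over all genes at 0.05. Each compound was fitted with its route vehicle only. Library totals of 13826343 to 35075809 limit precision mainly for low genes. Alternatives were library-total scaling, totals without mitochondrial transcripts, DESeq2 1.42.0, all 17 vehicles, no filter, the liver number as a block or range, and each liver left out. Summaries and figures were made with Python 3.11.15, pandas 2.3.3, numpy 2.4.6, scipy 1.17.1 and matplotlib 3.10.9, and the fits were tested on simulated data. Members, lists and rules were chosen with earlier results of these data known. Named members were the 3 largest called rises and falls per compound, members with known roles or near copies, the 3 highest and lowest levels, the 3 departing most from the summed members per compound, and those called in both directions. From each list up to 3 called genes per compound were eligible. Rps27rt was in the list outside the symbol rule but was not tested. Some genes that the rules select are not reported here by name.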

Additional observations from a re-analysis of the deposited data

Results flagged for a closer look

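In 10 of 105 groups tested, 1 liver lay far from the others of its group. The criterion was Dixon's 95% critical value, which by its construction marks about 1 in 20 groups of independent values by chance. MDA liver 2 was the highest of its 7 livers, by TMM-scaled CPM, for 5 genes: Rplp0 at 1609.53, Rps6 at 715.72, Rpl41 at 1868.58, Rpl12 at 110.03 and Rps27a at 1082.83. APAP liver 8 was far above the other 5 for Rpl41, at 2008.59 CPM, and ANIT liver 3 above the other 3 for Rpl12, at 109.62 CPM. ConA liver 11 stood apart for Rps21, at 700.73 CPM, and ConA liver 12 for Rpl12, at 142.03 CPM. TAA liver 7 held 24.373% mitochondrial transcript, far above the other 4 TAA livers. These values share livers and scaling factors.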

How the results depend on the processing

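Counts of members called higher or lower depended on scaling, controls and single livers, and the cause was not tested. Percentages in parentheses are the shares of all genes called in the same fit and direction. With ANIT the count higher (20 in the report, 14.0%) was 1 with library-total scaling (5.86%), 5 with the total without mitochondrial transcripts (6.89%), 1 with all 17 vehicles and library-total scaling (5.86%), 12 with the range of liver numbers as covariate (9.17%) and 12 in livers numbered 1 to 4 (6.86%), and the covariate gave 1 lower (Rps4l; 9.90%). With APAP (38, 17.3%) it was 59 without mitochondrial transcripts (21.7%), 24 with no low-value filter (10.4%), 0 in livers 1 to 4 (2.93%) and 16 above 4 (10.3%). With MDA (13, 17.4%) it was 5 under library-total scaling with either control set (11.5% and 11.4%), 6 with no filter (10.0%), 2 in livers 1 to 4 (4.99%) and 0 above 4 (10.1%), and 1 was lower (0 in the report) under library-total scaling with either control set (14.4% and 16.3%), without mitochondrial transcripts (14.9%), with the covariate (16.3%) and in livers 1 to 4 (5.38%). With TAA (43, 26.4%) it was 21 in livers 1 to 4 (11.2%) and 19 above 4 (24.7%). With GAL (1 higher, 5 lower, 12.8% and 15.7%) the counts were 39 and 0 under library-total scaling (35.5% and 5.42%), 64 and 0 without mitochondrial transcripts (40.9% and 5.22%), 2 and 11 by DESeq2 (18.4% and 19.2%), 1 and 14 with all 17 vehicles (25.1% and 27.5%), 64 and 0 with these and library-total scaling (54.6% and 11.5%), and 0 and 2 with no filter (5.29% and 7.03%). With ConA (5 higher, 0 lower, 16.8% and 17.3%) they were 0 and 2 under library-total scaling (7.78% and 26.4%) and without mitochondrial transcripts (9.97% and 26.4%), 9 and 1 by DESeq2 (20.8% and 18.3%), 49 and 1 with all 17 vehicles (34.0% and 34.1%), 0 and 30 with these and library-total scaling (17.0% and 50.8%), 3 and 0 with no filter (8.54% and 9.90%), and 0 higher in livers above 4 (11.0%). Leaving out 1 liver gave 10 to 19 higher for ANIT (8.46% to 13.5%), 20 to 42 for APAP (14.5% to 17.5%), 6 to 17 for MDA (14.2% to 17.8%; 0 to 2 lower, 14.5% to 17.0%), 28 to 52 for TAA (23.6% to 26.2%), 33 to 63 for CCl4 (8.72% to 18.9%), 0 to 3 for GAL (2.72% to 20.6%; 0 to 8 lower, 6.15% to 21.9%) and 0 to 17 for ConA (12.3% to 17.4%), with 0 to 0 lower elsewhere. Relative to the summed members, all 17 vehicles gave 12 above and 16 below with ConA (21.6% and 43.8%), 15 and 6 with GAL (29.7% and 20.7%), and 19 and 15 with CCl4 (7.52% and 55.6%). The ratio of the summed share with GAL moved from 1.43 to 1.58 without mitochondrial transcripts. Gavage vehicles 1 to 4 against those above 4 differed in 2 members under library-total scaling. Rpl41, Rplp1 and Rps21 reversed with GAL, to 0.038, 0.12 and 0.058 under library-total scaling, 0.18, 0.25 and 0.20 without mitochondrial transcripts, and 0.17, 0.21 and 0.11 with all 17 vehicles and library-total scaling. Of 335 alternatives for 22 named changes, 256 kept direction and call, 70 kept direction without the call and 9 reversed. The labels do not say that a number marks a shared litter or day, and no comparison with 3 or more pairs had a correlation over 0.1 in each (TAA 0.011 to 0.247), so the numbers were not taken to pair the samples. With the replicate block, on the livers with shared numbers, the count higher was 0 for ANIT (3.11%), 0 for APAP (0.361%), 5 for MDA (7.78%), 35 for TAA (17.2%) and 0 for GAL (11.2%), with 1 lower for GAL (16.3%), so few genes of any kind were called for ANIT and APAP. Not run were the block for CCl4 and ConA (1 shared number), the covariate and livers 1 to 4 for injected compounds, and livers above 4 for ANIT. List counts under other scalings or controls were chosen after seeing the data.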
